A study of Mus musculus with 8 samples.

Results

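The genes of antigen presentation by the major histocompatibility complex (MHC) were examined in mouse renal cortex after a high fat diet. They are 10 genes chosen by symbol: the class II genes H2-Aa, H2-Ab1, H2-Eb1, Cd74 and Ciita, and the class I genes H2-K1, H2-D1, B2m, Tap1 and Nlrc5. All 10 were found among the 23504 gene symbols measured, and all 10 passed the filter on low counts. The tissue was dissected outer cortex of wild-type C57Bl6/J mice, all 15 weeks old. One group had eaten a high fat diet for 9 weeks, beginning at 6 weeks of age, and the other a control diet over the same time. There were 4 libraries on the high fat diet (A, B, F and G) and 4 on the control diet (I, J, L and M), made from total RNA depleted of ribosomal RNA. Every library title carries an M between the diet and the replicate letter, and the labels do not spell out whether it stands for sex. Nor do they state whether any mouse gave more than 1 library. The p-values therefore reflect the spread among libraries alone, which may be technical. The study asked which genes of the cortex differ between the diets.

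MHC class I molecules present peptides from inside the cell to CD8 T cells and are made by nearly all nucleated cells. Each consists of a heavy chain, such as H-2K from H2-K1 or H-2D from H2-D1, paired with beta-2-microglobulin from B2m and loaded with peptides that the transporter Tap1 helps to carry into the endoplasmic reticulum. MHC class II molecules present peptides taken up from outside the cell to CD4 T cells and are made mainly by dendritic cells, macrophages and B cells. Their alpha and beta chains come from H2-Aa, H2-Ab1 and H2-Eb1, and Cd74 encodes the invariant chain that guides them. Ciita and Nlrc5 encode the transactivators of the class II and class I genes. Both act through a shared promoter module, in which the X box is bound by a complex containing Rfx5 and the Y box, an inverted CCAAT sequence, by NF-Y.

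The part of that module between the X2 core (letters TGACG) and the Y core (letters ATTGG) is shown for 5 of the 6 members whose promoter could be read, those with a match to the Y core, because the module is common to class I and class II genes. Sequences are from RefSeq on GRCm38.p6, 5′ to 3′ along the gene, with capitals marking matches to these cores on either strand, and H2-Eb1 is shown as its Y core with the 24 bases before it.
H2-K1: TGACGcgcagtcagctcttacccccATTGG
H2-D1: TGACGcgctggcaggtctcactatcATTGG
B2m: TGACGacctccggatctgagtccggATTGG
H2-Aa: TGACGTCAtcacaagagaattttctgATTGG
H2-Eb1: tgatgctggactcctttgatgctgATTGG
The cores were 20 bases apart in H2-K1, H2-D1 and B2m and 21 bases apart in H2-Aa, where TGACG matched on both strands with an overlap of the matches. H2-Eb1 held no match to TGACG in the 200 bases before its start, so only its Y core is in capitals. On the genome these stretches lie on chromosome 17 at chr17:34000359-34000388 on the minus strand for H2-K1, chr17:35262993-35263022 on the plus strand for H2-D1, chr17:34287867-34287897 on the minus strand for H2-Aa and chr17:34305784-34305812 on the plus strand for H2-Eb1, and on chromosome 2 at chr2:122147609-122147638 on the plus strand for B2m. That of H2-D1 overlaps an exon annotated in GENCODE.

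Windows ending 11 bases before the RefSeq start are given for 3 members, 1 heavy chain, its light chain and 1 class II chain, to show what lies around these cores.
H2-K1 (chr17:34000358-34000547, minus strand): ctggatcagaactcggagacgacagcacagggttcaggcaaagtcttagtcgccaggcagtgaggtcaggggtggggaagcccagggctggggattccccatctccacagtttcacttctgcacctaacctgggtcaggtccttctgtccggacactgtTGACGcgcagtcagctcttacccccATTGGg
B2m (chr2:122147487-122147676, plus strand): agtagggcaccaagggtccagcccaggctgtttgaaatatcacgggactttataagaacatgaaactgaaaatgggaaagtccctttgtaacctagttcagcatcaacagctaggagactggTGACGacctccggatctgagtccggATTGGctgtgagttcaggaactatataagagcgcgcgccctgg
H2-Aa (chr17:34287834-34288023, minus strand): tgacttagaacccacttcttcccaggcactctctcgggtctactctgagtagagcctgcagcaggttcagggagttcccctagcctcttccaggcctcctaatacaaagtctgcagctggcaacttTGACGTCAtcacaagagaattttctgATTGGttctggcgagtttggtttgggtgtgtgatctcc
Capitals again mark the matches to the X2 and Y cores, searched on both strands. Of 27025 promoters in the RefSeq table, 1 per gene and 200 bases each, 15.8% held the X2 core and 30.02% the Y core. The X2 core followed by the Y core on the same strand with 15 to 25 bases between them stood in 0.374% of the promoters. The 200 bases of H2-K1 and H2-D1 could be aligned over 139 bases with 127 identical, or 91.4%. Tap1 held the X2 core without the Y core, and Cd74, Ciita, H2-Ab1 and Nlrc5 are named only.

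**Figure D1:**
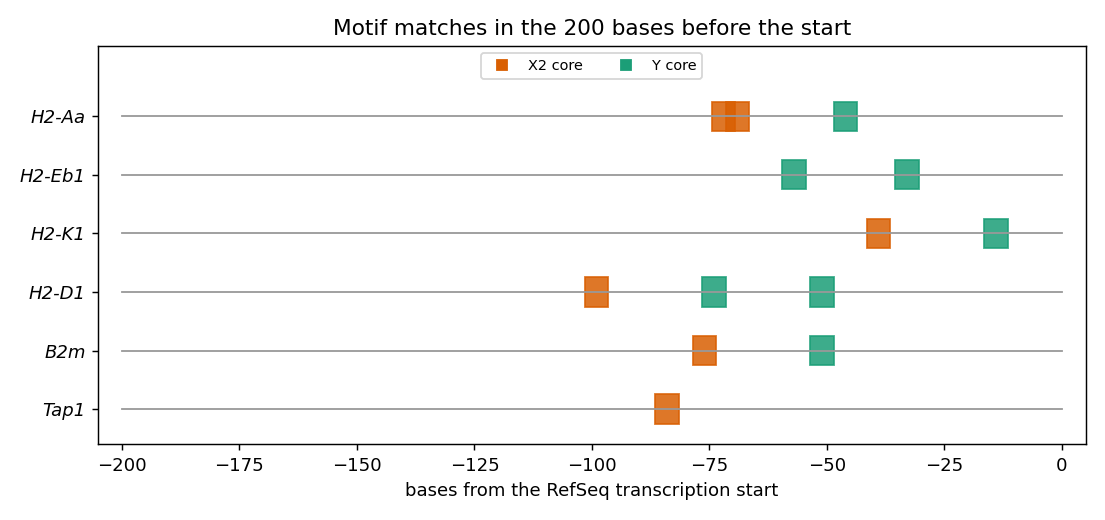
Motif matches in 6 MHC promoters, by distance in bases from the RefSeq transcription start. Orange marks the X2 core and green the Y core, on either strand; H2-K1, H2-D1, B2m and H2-Aa share the X2 core followed by the Y core, with the pair nearer to the annotated start in H2-K1 than in H2-D1.

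Library totals ran from 23503593 to 26291029 expected counts on the high fat diet and from 26572175 to 30781585 on the control diet. Rn45s, the ribosomal RNA precursor, took 50.3% of control J and 1.23% to 13.3% of the other libraries, and was removed before levels were scaled. What remained ran from 21793784 to 24534731 counts on the high fat diet and from 13993652 (control J) to 30403685 on the control diet. The 10 MHC genes together held 0.096% to 0.113% of these counts on the high fat diet and 0.0896% to 0.111% on the control diet. Levels between diets are given as CPM, counts scaled to a library size of 1000000 with TMM factors. The label of cortex was checked with 6 proximal tubule markers, led by Kap and Lrp2, which summed to 41813 to 46976 CPM on the high fat diet and 35570 to 42838 CPM on the control diet. The 4 medulla markers, led by Umod and Aqp2, whose nephron segments also run through cortex, summed to 2281 to 2854 CPM on the high fat diet and 2687 to 3186 CPM on the control diet (exact permutation p = 0.0571, as for the proximal tubule sum, which differed in the other direction). The 5 fat cell markers summed to at most 0.932 CPM and 1.45 CPM on those diets.

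H2-K1 was lower in every high fat library than in any control library, while the levels of H2-D1, the other classical heavy chain gene of this strain, overlapped between the diets. H2-K1 (chromosome 17, 33996017 to 34000347, minus strand, GRCm38) had 173, 186, 184 and 185 CPM in high fat A, B, F and G, against 207, 213, 213 and 215 CPM in control I, J, L and M. The highest high fat library lay below the lowest control library. The level fell to 182 ± 5.94 CPM on the high fat diet, against 212 ± 3.66 CPM on the control diet (SD, n = 4 each), and the log2 fold change was -0.22 ± 0.05 (SE; adjusted p = 0.017, edgeR's quasi-likelihood test with Benjamini-Hochberg adjustment over 14711 genes). As a fold this is 0.859, with a 95% interval of 0.799 to 0.923. Of the 10 MHC genes it was the single one called, beside 9.99% of all genes tested (5.13% lower and 4.86% higher), so the count of calls was near the background. Its levels were also the single set that did not overlap between the diets, a separation seen in 17.5% of all genes tested (9.18% below and 8.29% above). The call was lost without high fat A, the lowest library (adjusted p = 0.0509 in edgeR). It was kept in the other 7 fits that left out 1 library, at adjusted p = 0.0293 to 0.0421 in edgeR. In the authors' deposited table of gene symbols H2-K1 had a fold of 0.861 with a posterior probability of equal expression of 0, and it was the single MHC member among the 1133 genes listed there.

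H2-D1 (chromosome 17, 35262730 to 35267499, plus strand) had 209.9, 223, 214 and 227 CPM in high fat A, B, F and G, against 202, 203, 206 and 218 CPM in control I, J, L and M. The groups overlapped, with control M above high fat A and F. The means were 219 ± 8.11 CPM on the high fat diet and 207 ± 7.39 CPM on the control diet (SD, n = 4 each), a fold of 1.06 with a 95% interval of 0.977 to 1.14 and adjusted p = 0.35 in edgeR. The ratio of H2-K1 to H2-D1 was 0.824, 0.832, 0.861 and 0.813 in high fat A, B, F and G, against 1.03, 1.05, 1.04 and 0.988 in control I, J, L and M. Within each library this ratio does not depend on scaling, and all 4 high fat values lay below all 4 control values, at 0.833 ± 0.0207 and 1.02 ± 0.0259 (SD, n = 4 each). The ratio was chosen after its values were seen and is given with no test. H2-K1 and H2-D1 summed to 401 ± 13.2 CPM on the high fat diet and 419 ± 10.4 CPM on the control diet (SD, n = 4 each), with overlap.

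**Figure D2:**
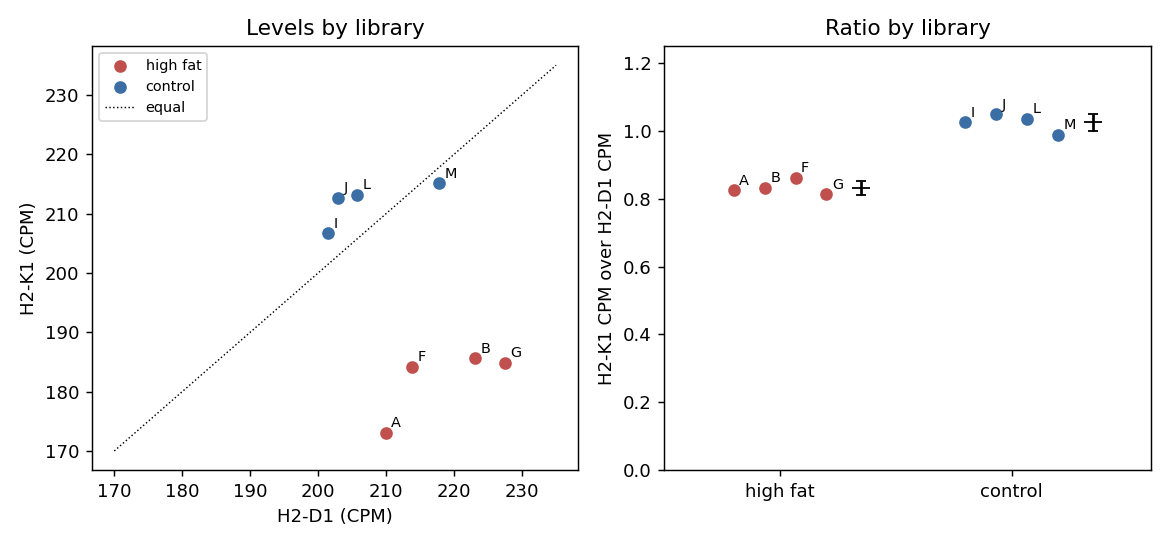
Left, H2-K1 against H2-D1 in CPM, 1 point per library with its letter, red for high fat and blue for control, with a dotted line of equal levels. Right, the ratio of H2-K1 to H2-D1 with mean and SD (n = 4 each); high fat libraries lie between 0.813 and 0.861 and control libraries between 0.988 and 1.05.

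The heavy chain genes have similar sequences, so reads can be shared between them by the authors' counting with RSEM, and their separate levels are uncertain to that extent. Of the 1570 stretches of 50 bases in the longest coding GENCODE transcript of H2-K1, 8.79% also occurred in a coding transcript of another gene, and 6.94% in H2-D1. Non-coding transcripts and pseudogenes were not searched. For H2-D1 the share was 14.3%, most often with H2-Q1. When H2-K1, H2-D1, H2-K2, H2-L and the H2-Q genes were summed into 1 gene, an alternative added after the data were seen, the sum was 464 ± 17.97 CPM on the high fat diet and 487 ± 12.5 CPM on the control diet (SD, n = 4 each). Its log2 fold change was -0.07 ± 0.05 (SE; adjusted p = 0.416, edgeR). None of H2-Aa, H2-Ab1, H2-Eb1, Cd74, Ciita, B2m and Nlrc5 shared a stretch of 50 bases with a coding transcript of another gene, and 0.861% of those of Tap1 occurred in Tap2.

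B2m, the light chain gene (chromosome 2, 122147686 to 122153083), had 189, 194, 203 and 219 CPM in high fat A, B, F and G, against 172, 189, 210.2 and 195 CPM in control I, J, L and M. High fat G was the highest library and control I the lowest, and the groups overlapped. The means were 201 ± 13.2 and 192 ± 15.6 CPM on the high fat and control diets (SD, n = 4 each), a fold of 1.05 with a 95% interval of 0.944 to 1.17 and adjusted p = 0.554 in edgeR. The ratio of H2-K1 to B2m was 0.843 to 0.957 on the high fat diet and 1.01 to 1.199 on the control diet, without overlap, and that of H2-D1 to B2m was 1.04 to 1.15 and 0.979 to 1.17, with overlap. These ratios are given with no test, and the levels of H2-K1 by themselves already separated the diets.

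Tap1, a subunit of the peptide transporter (chromosome 17, 34187553 to 34197225), had 8.62, 12.5, 12.5 and 12.2 CPM in high fat A, B, F and G, against 11.5, 9.02, 12.2 and 12.8 CPM in control I, J, L and M. High fat A and control J were low, each in its own diet. The fold was 0.997 with a 95% interval of 0.810 to 1.23 and adjusted p = 0.988 in edgeR. Nlrc5, the class I transactivator gene (chromosome 8, 94434356 to 94527272), had 6.14, 6.62, 9.94 and 8.57 CPM in high fat A, B, F and G, against 7.39, 7.15, 8.57 and 8.90 CPM in control I, J, L and M. The high fat libraries fell on both sides of the control libraries. The fold was 0.972 with a 95% interval of 0.772 to 1.22 and adjusted p = 0.893 in edgeR. These genes rest on 92 to 406 counts per library. By gene bounds, Tap1 overlaps Psmb9 on the other strand, as B2m overlaps Patl2 and Ciita overlaps Dexi. H2-Eb1 and Nlrc5 each overlap a non-coding gene on the other strand. The use of strand in counting was not given in the sources used here. Reads from the stretches that such pairs share therefore cannot be told apart, and whether their exons overlap was not examined.

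None of the 5 class II genes was called. All 5 had a higher mean on the high fat diet, with a median log2 fold change of 0.15 beside -0.0023 over all genes tested, although H2-Ab1 turned to -0.062 without high fat G and to -0.049 without control I. H2-Aa, the alpha chain gene (chromosome 17, 34282744 to 34287823), had 75.2, 75.9, 74.9 and 88.9 CPM in high fat A, B, F and G, against 60.4, 63.8, 84.1 and 74.5 CPM in control I, J, L and M. Control I and J were low and high fat G was high, with control L above high fat A, B and F. The fold was 1.11 with a 95% interval of 0.952 to 1.30 and adjusted p = 0.364 in edgeR. H2-Ab1, the beta chain gene (chromosome 17, 34257689 to 34269419), had 66.1, 66.1, 61.8 and 86.2 CPM in high fat A, B, F and G, against 52.8, 76.5, 77.0 and 64.2 CPM in control I, J, L and M. Here control J was among the higher libraries. The fold was 1.04 with a 95% interval of 0.851 to 1.27 and adjusted p = 0.825 in edgeR.

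H2-Eb1, the beta chain gene of the second class II molecule (chromosome 17, 34305867 to 34316674), had 68.7, 66.0, 71.6 and 83.8 CPM in high fat A, B, F and G, against 52.8, 56.6, 70.9 and 67.2 CPM in control I, J, L and M. Controls L and M lay within the high fat range and I and J below it. It had the smallest p of the class II genes, with 72.5 ± 7.86 and 61.9 ± 8.57 CPM on the high fat and control diets (SD, n = 4 each), and the log2 fold change was 0.23 ± 0.10 (SE). Its unadjusted p = 0.0483 became an adjusted p = 0.179 in edgeR. Mice of the C57BL strains lack the alpha chain partner of this gene's product. H2-Ea-ps, the locus of that alpha chain, had 0 expected counts in all 8 libraries, where 3 counts would equal 0.0947 to 0.233 CPM.

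Cd74, the invariant chain gene (chromosome 18, 60803848 to 60812652), had 164, 157, 163 and 198 CPM in high fat A, B, F and G, against 127, 151, 175 and 166 CPM in control I, J, L and M. The order of the libraries resembled that of H2-Aa, with high fat G at the top and control I at the bottom. The fold was 1.10 with a 95% interval of 0.941 to 1.29 and adjusted p = 0.42 in edgeR. Ciita, the class II transactivator gene (chromosome 16, 10480059 to 10528418), had 7.53, 8.06, 11.8 and 11.9 CPM in high fat A, B, F and G, against 6.61, 6.30, 10.6 and 10.1 CPM in control I, J, L and M. In both diets the libraries fell into a lower and a higher pair. With 81 to 321 counts per library, the fold was 1.15 with a 95% interval of 0.846 to 1.57 and adjusted p = 0.554 in edgeR.

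**Figure D3:**
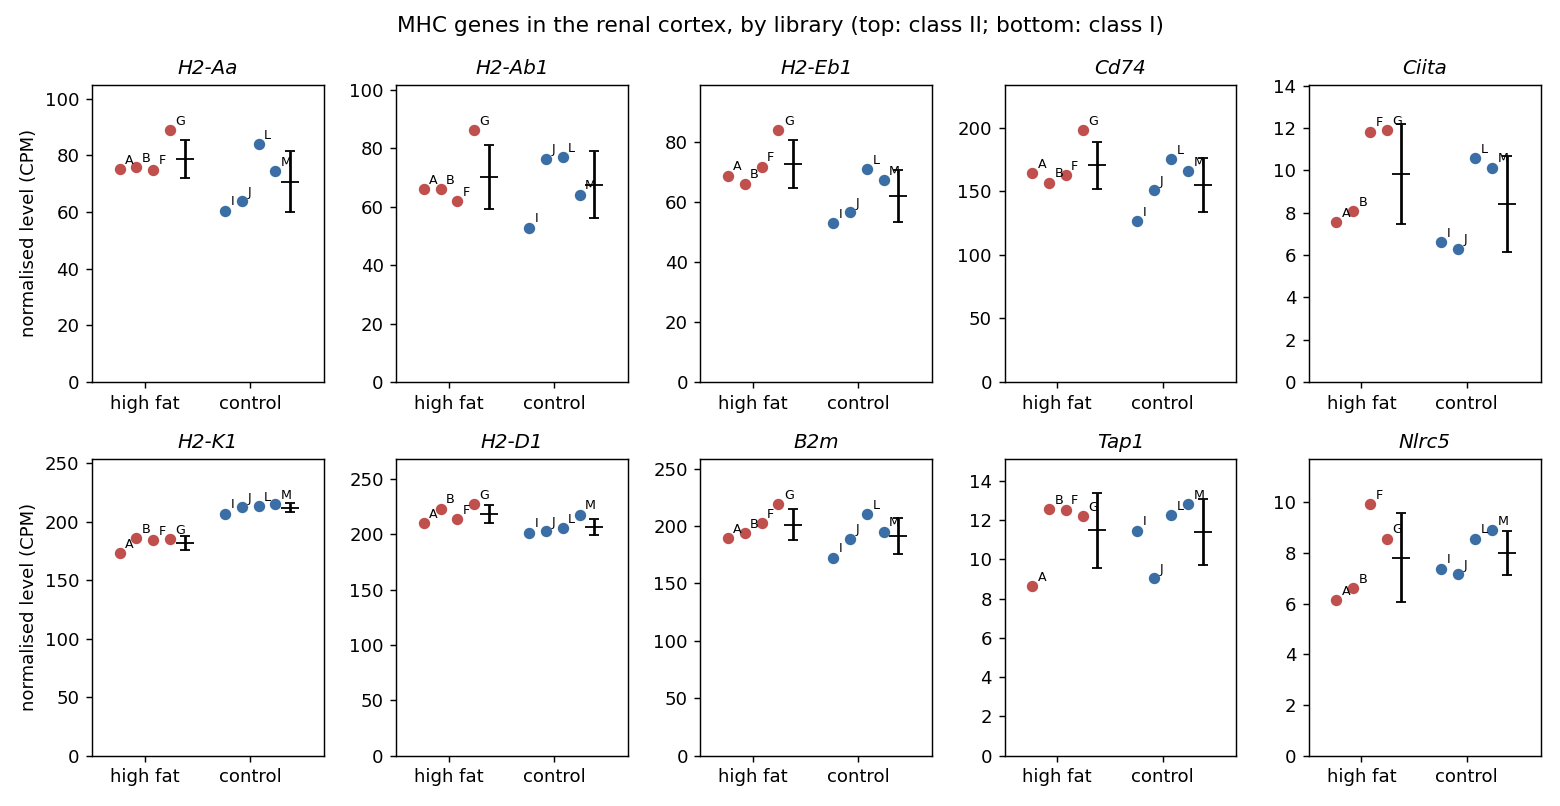
Levels in CPM of the 10 MHC genes, 1 point per library with its letter, red for high fat and blue for control, with mean and SD (n = 4 each) in black. H2-K1 is the single panel in which the diets do not overlap, at 182 ± 5.94 CPM on high fat and 212 ± 3.66 CPM on control.

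Relative to each gene's own mean on the log2 scale, H2-Aa, H2-Ab1, H2-Eb1, Cd74 and Ciita stood at 0.26 to 0.42 in high fat G and at -0.42 to -0.30 in control I. Likeness was measured as the root mean square difference of such log2 values over the 8 libraries. This distance also grows with the width of a gene's swings. Genes that vary little can therefore rank as near without rising and falling together. Among the other 9 MHC genes H2-Aa was nearest to H2-Eb1 (0.0571) and Cd74 (0.061) and farthest from H2-K1 (0.238). The class I genes B2m (0.0892) and H2-D1 (0.138) were nearer to it than its partner chain H2-Ab1 (0.159), and Tap1 (0.213) was nearer than Ciita (0.224). Ciita swung more widely than H2-Aa, from -0.49 in control J to 0.42 in high fat G, and its distance includes that width. H2-K1 was nearest to H2-D1 (0.153) and farthest from Ciita (0.378), but the means of H2-K1 and H2-D1 differed between the diets in opposite directions. H2-K1 stood at -0.18 to -0.08 on the high fat diet and at 0.07 to 0.13 on the control diet. For H2-D1, which was not called, these ranges were -0.02 to 0.10 and -0.08 to 0.03. Within the diets their orders were alike. Both rose from control I through J and L to M, and both were lowest in high fat A, with F next. Of 10880 further genes that averaged 5 CPM or more, those nearest to H2-Aa were Gk5, Dock10, Coro1a, Eif5 and Plcb1, at 0.0562 to 0.074; Coro1a encodes an actin-binding protein of leucocytes. Those nearest to H2-K1 were Rbm26, 8430419L09Rik, Polr3k, Wars and Pmm2, at 0.0246 to 0.0403, an RNA-binding protein, an unnamed gene, an RNA polymerase III subunit, a tRNA synthetase and a phosphomannomutase.

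**Figure D4:**
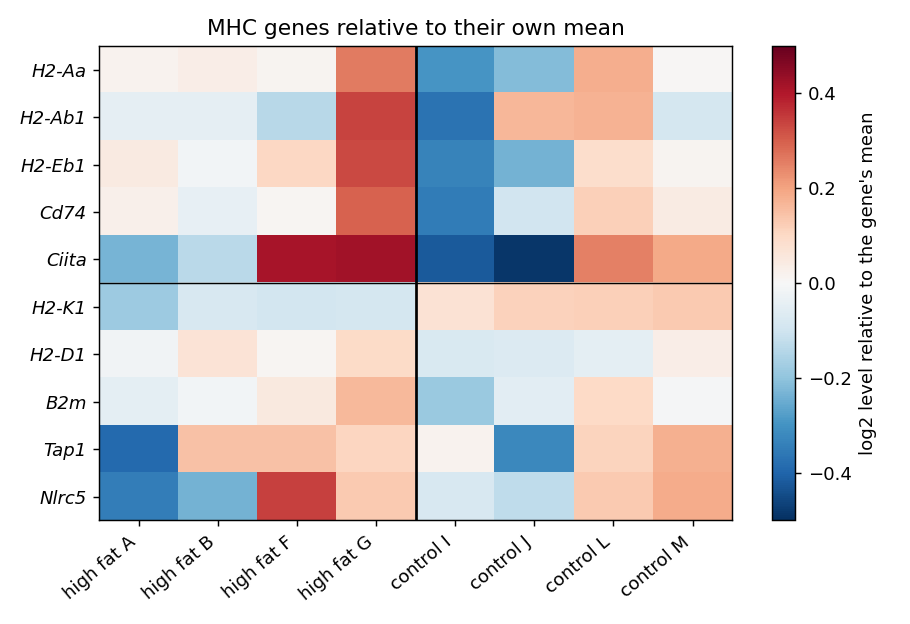
Log2 level of each MHC gene relative to its own mean, by library, high fat on the left and control on the right, class II above the line and class I below; red is higher and blue lower. Class II genes are high in high fat G and low in control I, and H2-K1 is below its mean in all 4 high fat libraries.

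H2-Ab1 departed from H2-Aa in 1 library. The ratio of H2-Ab1 to H2-Aa was 0.879, 0.870, 0.825 and 0.970 in high fat A, B, F and G, against 0.874, 1.2, 0.916 and 0.861 in control I, J, L and M. Control J, in which Rn45s took the largest share, stood above the other 7 libraries. For H2-Eb1 to H2-Aa the ratios ran from 0.869 to 0.956 on the high fat diet and from 0.843 to 0.901 on the control diet, with control J within the range of the others.

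Because class II genes are carried by few cell types, markers of those cells were set beside them. In bulk tissue, fewer cells of a type and less RNA per cell cannot be told apart. The 4 leucocyte markers, all detected and all with a higher mean on the high fat diet, summed to 38.8 to 53.3 CPM on the high fat diet and 31.7 to 46.7 CPM on the control diet (exact two-sided permutation p = 0.229). Ptprc, which encodes CD45, had 22.1, 18.9, 21.1 and 25.1 CPM in high fat A, B, F and G, against 14.5, 18.2, 21.5 and 20.6 CPM in control I, J, L and M. As with H2-Aa, H2-Ab1, H2-Eb1 and Cd74, high fat G was the highest and control I the lowest; for Ciita the lowest was control J. H2-Aa, H2-Ab1, H2-Eb1 and Cd74 summed to 8.25 to 9.40 times the leucocyte sum on the high fat diet and 8.72 to 9.36 times on the control diet, with overlap. The part of leucocyte number in the class II values was not tested. The 5 red cell markers found summed to 4167 CPM in high fat G and 803 to 1046 CPM in the other high fat libraries, against 1836 CPM in control J and 738 to 798 CPM in the other controls. High fat G, where the class II genes were highest, was thus also the highest in red cell RNA, whose part in those values was not tested.

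The 8 macrophage markers summed to 88.9 to 119 CPM on the high fat diet and 80.1 to 118 CPM on the control diet (exact permutation p = 0.657), and the 7 dendritic cell markers to 21.7 to 27.3 and 21.9 to 26.5 CPM (exact permutation p = 0.857). Within the dendritic list the largest members differed in opposite directions without being called: Zbtb46, a transcription factor gene, averaged 9.42 ± 0.979 and 11.7 ± 0.603 CPM (adjusted p = 0.0578 in edgeR), and Itgax, encoding CD11c, 6.37 ± 1.17 and 4.40 ± 1.21 CPM on the high fat and control diets (SD, n = 4 each; adjusted p = 0.114 in edgeR). None of the markers of these lists was at 0 in all libraries. The 6 B cell markers summed to 4.51 to 5.64 CPM on the high fat diet and 4.23 to 5.06 CPM on the control diet (exact permutation p = 0.143), mostly from Cr2. The 7 T and NK cell markers found summed to 2.80 to 4.02 and 2.58 to 3.69 CPM (exact permutation p = 0.429). The 6 endothelial markers, of cells that carry much class I, summed to 389 to 407 CPM on the high fat diet and 375 to 401 CPM on the control diet (exact permutation p = 0.171). H2-K1 and H2-D1 together came to 0.986 to 1.028 times this sum on the high fat diet and 1.037 to 1.119 times on the control diet, without overlap. That ratio is given with no test, and the levels of H2-K1 by themselves already separated the diets. The part of endothelial cells in the class I values was not tested. Over all 14 marker lists 0 sums had an unadjusted p under 0.05, 0.0286 is the smallest p that 70 splits can give, and the smallest Benjamini-Hochberg adjusted value of these exact permutation tests was 0.267. Sums can hide single markers that differ. In edgeR 1 of 6 proximal tubule markers was called higher and 1 lower, as were 1 and 1 of 3 tested plasma cell markers. No tested marker of the other lists was called, beside 9.99% of all genes tested.

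**Figure D5:**
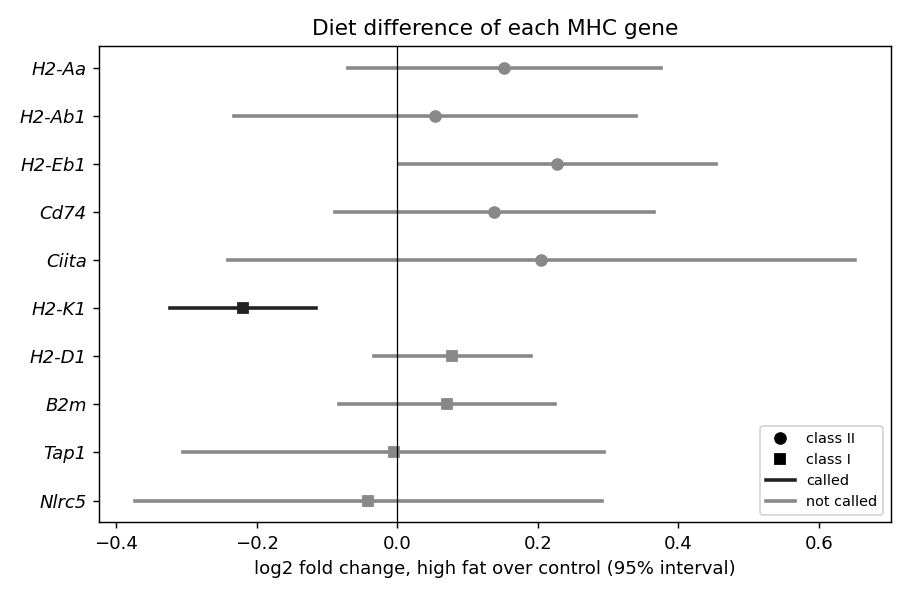
Log2 fold change of high fat over control for each MHC gene, with its 95% interval from edgeR; circles are class II, squares class I, and black marks the called gene. The interval of H2-K1 lies below 0, and that of H2-Eb1, whose adjusted p was 0.179, starts just above 0.

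Levels of different genes were compared per length, as TPM, which is the authors' FPKM without Rn45s rescaled to a sum of 1000000 per library. B2m was the highest in all 8 libraries, at 495 ± 46.7 TPM on the high fat diet and 466 ± 50.1 TPM on the control diet (SD, n = 4 each). Cd74 averaged 263 ± 38.9, H2-D1 249 ± 17.97 and H2-K1 243 ± 22.6 TPM (SD, n = 8), 3 levels that did not keep 1 order across libraries. H2-D1 was above H2-K1 in 4 of 8 libraries, and these were the 4 high fat libraries. H2-Aa at 145 ± 21.5 TPM was above H2-Ab1 at 119 ± 18.3 TPM in 7 of 8 libraries, the exception being control J. H2-Eb1 followed at 81.9 ± 13.8 TPM. Tap1 at 7.77 ± 1.32, Ciita at 3.46 ± 0.977 and Nlrc5 at 2.27 ± 0.448 TPM kept this order in all 8 libraries.

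The partners of these genes were counted in 4 further lists, with 43 of 53 genes tested. Of these 2 were called higher, 0 lower and 41 were not called, beside 9.99% called over all genes; 9 had an unadjusted p under 0.05 (27.4% of all genes tested), and DESeq2 called 5. Without 1 library the number called was 1 (high fat A, high fat G, control J or control L left out), 2, or 4 (control M left out). Among 10 tested partners of class II, with a median log2 fold change of -0.02, Rfx5 rose, which encodes the X box binding factor named above (chromosome 3, 94954075 to 94961561). It had 19.5, 18.8, 21.5 and 19.2 CPM in high fat A, B, F and G, against 13.7, 13.8, 16.2 and 17.9 CPM in control I, J, L and M. All 4 high fat libraries were above the controls. The log2 fold change was 0.35 ± 0.09 (SE), a fold of 1.27, with adjusted p = 0.0398 in edgeR. Of 8 fits that each left out 1 library the call was kept in 1, the one lacking control M, and the largest adjusted p = 0.112 in edgeR came from the one lacking high fat F. An antisense gene, B230398E01Rik, overlaps Rfx5.

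Among 9 tested genes of interferon gamma signalling, with a median log2 fold change of -0.04, Ifngr2 rose, which encodes a chain of the interferon gamma receptor (chromosome 16, 91547072 to 91565623). It had 25.7, 27.0, 26.0 and 26.3 CPM in high fat A, B, F and G, against 21.8, 17.3, 20.0 and 21.0 CPM in control I, J, L and M. The high fat libraries lay close together and above all controls. The log2 fold change was 0.38 ± 0.07 (SE), a fold of 1.30, with adjusted p = 0.0102 in edgeR, and the call was kept in 8 of 8 fits without a library. In the authors' deposited table of gene symbols its fold was 1.31. The interferon gamma gene itself, Ifng, did not pass the filter on low counts.

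None of 12 tested genes of class I peptide loading was called (3 with an unadjusted p under 0.05), with a median log2 fold change of -0.05. The immunoproteasome subunit genes Psmb10 and Psmb8 had the smallest p of this list. Psmb10 averaged 9.40 ± 0.628 CPM on the high fat diet and 11.7 ± 1.23 CPM on the control diet, with adjusted p = 0.0592 in edgeR. Psmb8 averaged 9.66 ± 0.84 and 11.8 ± 1.10 CPM (SD, n = 4 each), with adjusted p = 0.0819 in edgeR. In both, as in the peptidase gene Erap1, which is named after its values were seen, all high fat libraries lay below all controls, a pattern seen in 9.18% of all genes tested. None of 12 tested genes of further class I and class I-like chains was called either (3 with an unadjusted p under 0.05), with a median of 0.13. The smallest p values were those of Hfe, an iron regulator gene, at 13.1 ± 1.09 and 16.7 ± 2.16 CPM, and Cd1d1, which presents lipids, at 1.46 ± 0.158 and 0.94 ± 0.148 CPM on the high fat and control diets (SD, n = 4 each), with adjusted p = 0.0531 and 0.0538 in edgeR.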

How the data were processed

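RNA of dissected outer renal cortex was sequenced from 8 libraries, 4 per diet. CASAVA 1.8.2 and RSEM 1.2.9 on mm10 are named in the submitters' processing notes. The authors deposited expected counts from RSEM, 1 value per gene symbol and library, and FPKM values of the same symbols. Their own comparison tables hold a fold (high fat over control, a ratio) and, as a score, a posterior probability of equal expression, per the file headers; the tool behind them was not given in the sources used here.

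Expected counts were rounded, Rn45s was removed before library sizes, and genes kept by filterByExpr entered the quasi-likelihood F test of edgeR 4.0.16 (R 4.3.3), with TMM factors, diet the only term and Benjamini-Hochberg adjustment over 14711 genes; a gene was called under 0.05. The procedure was tested on simulated data, in which every planted change was larger than that of H2-K1, so a change of that size was not covered. Library letters differ between the diets, so nothing pairs them. SE is the size of the log2 fold change over the root of F. Marker sums were compared as log2 sums by an exact permutation test. Positions are GENCODE M21 gene bounds on GRCm38, the assembly of mm10. Older symbols of the gene lists were matched through RefSeq synonyms, but those of the MHC region were not. Every member is named, with each called gene of the 4 partner lists or, in a list with none, the 2 smallest p, and the 5 genes likest to H2-Aa and to H2-K1. Members and lists were chosen with earlier results of these data known. Alternatives used DESeq2 1.42.0 and limma 3.58.1.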

Additional observations from a re-analysis of the deposited data

Results flagged for a closer look

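In all 5 values stood apart from the other 3 libraries of their diet by Dixon's criterion, out of 38 groups of 4 examined, where chance marks about 1 in 20. High fat G was at 88.9 CPM for H2-Aa, against 74.9 to 75.9 CPM in the other high fat libraries. The sum of H2-Aa, H2-Ab1, H2-Eb1 and Cd74 was 457 CPM in the same library, against 365 to 374 CPM in the other 3. High fat A was at 173 CPM for H2-K1, against 184 to 186 CPM in the others, and at 8.62 CPM for Tap1, against 12.2 to 12.5 CPM. Control J had a ratio of H2-Ab1 to H2-Aa of 1.2, against 0.861 to 0.916 in the other controls; 50.3% of its counts came from Rn45s, whose part in this value was not tested.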

How the results depend on the processing

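H2-K1 was lower on the high fat diet under all 20 alternatives that scored it as its own gene and was called under 14. Its log2 fold change was -0.20 with adjusted p = 0.0509 without high fat A, -0.23 with adjusted p = 0.0736 when control J and high fat G were both left out, and -0.21 with adjusted p = 0.0864 in limma on log2(TPM + 0.1) rescaled without Rn45s, chosen after the data were seen. On FPKM as deposited, in which Rn45s of control J lowers every other gene of that library, it was -0.07 with adjusted p of 0.999 to 1 in limma. The number of MHC genes called was 1 in 14 of the 20 alternatives and 0 in the other 6, which are those settings, and 0 to 1 without a single library. No other MHC gene was called under any of the 20. H2-Aa, H2-Eb1, Cd74, Ciita, H2-D1 and B2m stayed higher on the high fat diet under all 20, by sizes that moved with single libraries. Lacking high fat G the log2 fold changes of H2-Aa, H2-Eb1, Cd74, Ciita and B2m were 0.089, 0.15, 0.058, 0.10 and 0.028, against main values of 0.15, 0.23, 0.14, 0.21 and 0.07. Lacking control I those of H2-Aa, Cd74, Ciita and B2m were 0.083, 0.052, 0.097 and 0.023, and lacking control L those of H2-Aa, Ciita and B2m were 0.25, 0.33 and 0.12. Ciita also moved lacking high fat A (0.31), high fat F (0.10) or control J (0.11), and was 0.0051 lacking both control J and high fat G. Of the others, Tap1 (main value -0.0048) turned to 0.00060 with DESeq2 size factors, 0.0037 with the DESeq2 Wald test, 0.0054 at a mean of at least 5 CPM, 0.021 on rescaled TPM, 0.15 on FPKM with a pseudocount of 0.1 with or without the filter, and 0.095 with a pseudocount of 1. Nlrc5 (main value -0.04) turned to 0.084 and 0.028 on FPKM with pseudocounts of 0.1 and 1. H2-Ab1 (main value 0.05) turned to -0.0011 when control J and high fat G were both left out. With 1 library left out Tap1 ran from -0.086 to 0.11, Nlrc5 from -0.18 to 0.057 and H2-Ab1 from -0.062 to 0.12.

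Over all genes 1469 were called (715 higher, 754 lower), against 418 when control J and high fat G were both left out and 812 on rescaled TPM. With 1 library left out the number ran from 739 (lacking high fat F) to 1528 (lacking control M), and it was 795 lacking control I, 801 lacking control J, 908 lacking high fat G and 934 lacking high fat A. On FPKM with pseudocounts of 0.1 and 1 there were 91 calls (64 higher, 27 lower) and 98 (66 higher, 32 lower), and 44 without the filter (29 higher, 15 lower). Of partner genes, 2 were called, against 5 with the DESeq2 Wald test, 0 on each FPKM setting, 1 when control J and high fat G were both left out, and 1 to 4 with 1 library left out. No paired analysis was possible because the library letters of the diets do not match. Tap1, Nlrc5 and Ciita rest on 81 to 406 counts per library.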

Other observations

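The MHC region of chromosome 17 was also read as a whole, between the start of H2-K1 and the end of H2-D1 (33996017 to 35267499, GRCm38). Genes there were matched by exact GENCODE symbol alone, so tested genes under other names are left out. Of 62 genes matched and tested, 2 were called higher and 5 lower in edgeR. These are 3.23% and 8.06%, beside 4.86% and 5.13% of all genes tested. The 5 lower genes were H2-K1, the complement gene C2, the near-identical heat shock genes Hspa1a and Hspa1b, whose separate counts are uncertain, and the apolipoprotein gene Apom. The 2 higher genes were the matrix gene Tnxb and the sialidase gene Neu1. These genes are named after their values were seen. On the side of H2-K1 toward H2-D1, the side read here, the nearest genes matched and tested were Ring1, a Polycomb subunit, and H2-Ke6, a steroid dehydrogenase. Their log2 fold changes were 0.12 ± 0.10 (SE, adjusted p = 0.452 in edgeR) and 0.01 ± 0.06 (SE, adjusted p = 0.956 in edgeR).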
